A study of Mus musculus with 8 samples.

Results

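The Notch pathway and its Hes-family targets were examined in mouse embryonic stem (mES) cells with and without Trim71. The set held 10 genes taken by symbol: the receptors Notch1, Notch2, Notch3 and Notch4, the ligands Dll1, Dll3 and Jag1, the DNA-binding factor Rbpj, and the target genes Hes1 and Hey1. All 10 had a row in the deposited table of 13558 transcripts. The values are normalized read counts, and the comparison asked whether the transcripts of this pathway differ when Trim71, an RNA-binding ubiquitin ligase, is lost.

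Both genotypes were male C57BL/6 mES cells, derived from the inner cell mass of blastocysts, homozygous for a Trim71 allele with loxP sites around exon 4 and carrying a ubiquitously expressed CreERT2 recombinase in the Rosa26 locus. The 4 libraries called WT came from the undeleted cells (Trimfl/fl). The 4 libraries called KO (Trim-/-) came from the same conditional cells after deletion of the allele. By the labels, it was deleted with 500 nM 4-hydroxytamoxifen for 2 days, followed by a further culture of at least 7 days. The paper's methods give a lower dose and a shorter further culture. The labels give no treatment for the WT libraries, and the paper's methods name DMSO as the vehicle control. Only KO cells thus had the drug and the active recombinase, and their effects cannot be told apart from the loss of Trim71. Cells of both genotypes grew in serum with the cytokine LIF and were sorted with magnetic beads for the stem cell antigen SSEA-1. Clone E3 gave 5 libraries (3 KO, 2 WT) and clone 1 gave 3 (1 KO, 2 WT), so the clone 1 KO rests on a single library. KO replicates 1 to 4 bear the day labels 2, 3, 4 and 5 and WT replicates 1 to 4 the labels 1, 3, 4 and 5. What the day marks is not given, and nothing says that replicates were separate cultures, so the spread between libraries may be technical.

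Notch receptors are membrane proteins that are cut when a Delta or Jagged ligand on a neighbouring cell pulls on them. The freed intracellular domain enters the nucleus, joins Rbpj and a Mastermind coactivator, and switches on target genes, among them the transcriptional repressors of the Hes and Hey families. In the embryo the pathway holds neural progenitors back from differentiation, and Hes1 is also present in mES cells, where its level is known to vary between cells. Hes proteins bind N-boxes and related E-boxes, and genes of Delta ligands are among the genes they are known to repress.

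The starts of the 3 ligand genes are shown because all 3 had lower means in KO and because sites for Rbpj and for Hes proteins are often looked for there. Each sequence runs 5′ to 3′ on the gene's strand (the minus strand for all 3) from 250 bases before to 50 bases after a RefSeq start (GRCm38.p6, the same coordinates as mm10), and capitals mark an N-box. Dll1 has 2 entries.
Jag1 (chr2:137116471-137116770): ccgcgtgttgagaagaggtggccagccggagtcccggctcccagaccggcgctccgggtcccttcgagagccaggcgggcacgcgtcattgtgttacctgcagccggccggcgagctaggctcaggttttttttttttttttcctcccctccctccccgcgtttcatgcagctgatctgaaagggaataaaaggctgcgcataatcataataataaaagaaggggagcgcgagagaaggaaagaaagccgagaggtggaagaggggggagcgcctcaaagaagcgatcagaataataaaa
Dll3 (chr7:28301736-28302035): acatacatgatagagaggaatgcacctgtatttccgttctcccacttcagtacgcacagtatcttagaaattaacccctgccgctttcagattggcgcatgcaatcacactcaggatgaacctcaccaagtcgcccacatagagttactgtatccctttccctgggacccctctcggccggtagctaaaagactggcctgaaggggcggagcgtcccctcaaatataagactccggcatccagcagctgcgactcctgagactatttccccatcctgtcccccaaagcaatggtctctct
Dll1, first start (chr17:15375774-15376073): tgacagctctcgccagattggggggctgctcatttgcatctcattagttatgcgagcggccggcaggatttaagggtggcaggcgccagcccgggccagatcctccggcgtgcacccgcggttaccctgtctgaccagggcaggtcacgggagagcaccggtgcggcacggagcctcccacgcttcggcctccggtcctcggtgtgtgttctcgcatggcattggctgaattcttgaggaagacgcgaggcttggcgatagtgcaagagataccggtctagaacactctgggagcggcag
Dll1, second start (chr17:15376883-15377182): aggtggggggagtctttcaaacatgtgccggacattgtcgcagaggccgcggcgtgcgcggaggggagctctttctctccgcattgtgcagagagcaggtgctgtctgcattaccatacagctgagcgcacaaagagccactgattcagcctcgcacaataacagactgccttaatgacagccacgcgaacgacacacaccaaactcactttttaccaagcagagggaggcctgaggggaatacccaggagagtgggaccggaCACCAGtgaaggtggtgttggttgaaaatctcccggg
The N-box was searched as CACNAG and the Rbpj core site as TGGGAA, each on both strands. Of these 4 sequences only the second Dll1 start held an N-box, and none held the Rbpj core. RefSeq promoters were at hand for 8 of the 10 members, with 10 entries. The target genes Hes1 and Hey1 had no entry, so their starts were not searched. N-boxes were present in 4 of the 10 entries (Notch1, Notch2, Notch3 and the second Dll1 start) and in 42.5% of 32851 mouse promoters of the same length. The Rbpj core was present in 2 of the 10, both of them starts of Rbpj itself, and in 25.6% of all. A match describes these letters only, and its absence says nothing about binding.

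The members lie on 6 chromosomes. In mm10 (GENCODE vM21), Jag1 spans 137081456 to 137116644 on the minus strand of chromosome 2, which also holds Notch1 (26457903 to 26516663, minus). Dll1 (15367354 to 15376872, minus), Notch3 (32120820 to 32166852, minus) and Notch4 (34564268 to 34588503, plus) lie on chromosome 17, and Notch2 (98013527 to 98150361, plus) and Hey1 (8663359 to 8667256, minus) on chromosome 3. Dll3 lies on chromosome 7 (28293553 to 28302238, minus), Rbpj on chromosome 5 (53466152 to 53657362, plus) and Hes1 on chromosome 16 (30064384 to 30067796, plus).

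The targeted gene and the cell type were checked first. Trim71 stood at 500, 793, 733 and 247 normalized counts in the KO libraries, given here and below in the order of replicates 1 to 4, against 2782, 2736, 1988 and 2584 in the WT libraries, with every KO library below every WT library and a log2 fold change of -2.39 ± 0.35 (SE; limma, unadjusted p = 0.000201, adjusted p = 0.294). The remaining KO signal can include the exons that were not deleted. Its size in each library depends on the authors' correction for clone. With that correction undone, Trim71 stood at 223, 516, 456 and 524 in KO and at 3060, 2459, 1711 and 2861 in WT. All 6 ES cell markers (Pou5f1, Sox2, Nanog, Zfp42, Esrrb and Fut9) were present, with summed values of 44970 to 55303 in KO and 41908 to 51011 in WT. Whole reads recovered from the values came to between 6981921 (WT replicate 2) and 25923080 (WT replicate 3) per library, which sets the precision of each value. Slopes on GC content were taken with the clone correction undone, from deviations from each transcript's mean, in a fit that also held transcript length. In KO replicate 3 values rose with GC content by 0.63 on the log2 scale per 10 percentage points. The slopes of the other 7 libraries were -0.24 to 0.10, so results that rest on KO replicate 3 are given without it too. The GC and length trend removed below was fitted separately, on the deposited values unless stated.

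Levels of different genes were compared per kilobase of the longest annotated transcript, as normalized counts per kb. In WT, Rbpj was highest at 1586 ± 131 (SD, n = 4), followed by Notch3 at 191 ± 46.9, Notch1 at 116 ± 27.3, Hes1 at 113 ± 29.8 and Notch2 at 72.5 ± 6.14. Then came Dll1 at 40.9 ± 13.7, Jag1 at 38.7 ± 6.22, Dll3 at 25.3 ± 3.82, Notch4 at 22.5 ± 10.2 and Hey1 at 22.2 ± 2.90 counts per kb. The neighbours Notch1 and Hes1, Dll1 and Jag1, and Dll3, Notch4 and Hey1 lay within their SDs of each other. In KO, Hes1 stood at 168 ± 23.6 counts per kb and Notch1 at 101 ± 48.5. GENCODE lists 2 processed pseudogenes of Rbpj, on chromosomes 4 and 6, and how reads shared with them were counted is not given, so the high Rbpj level is uncertain.

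**Figure D1:**
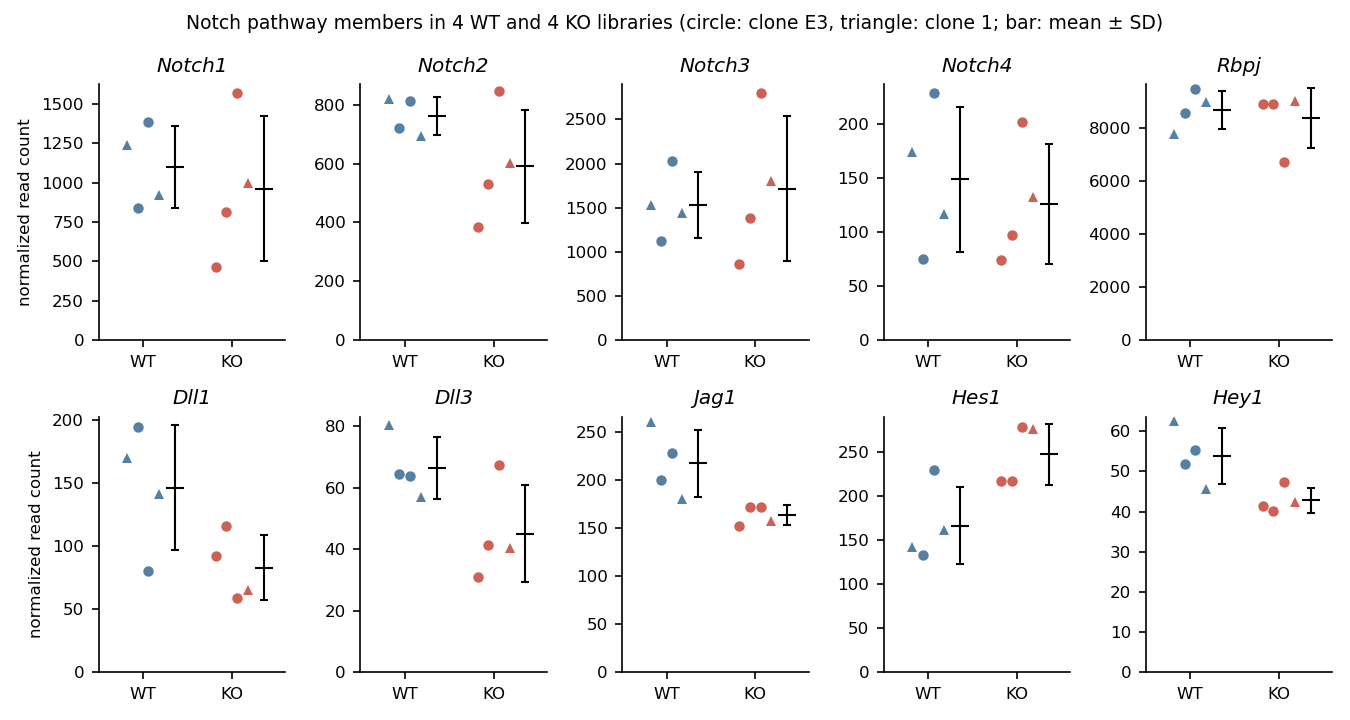
Normalized read counts (y axis, from 0) of the 10 members in the 4 WT libraries (blue) and 4 KO libraries (red), with the mean ± SD beside each group; circles are clone E3 and triangles clone 1. The 4 KO libraries lie below the 4 WT libraries for Jag1, and the groups overlap for the other 9 genes.

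The receptors did not separate the genotypes. Notch1, which is required for early somite and blood formation, gave normalized counts of 466, 817, 1568 and 995 in KO and of 1240, 842, 1388 and 921 in WT. Notch3 had 860, 1386, 2799 and 1807 in KO and 1529, 1127, 2033 and 1443 in WT. For both genes KO replicate 1 was the lowest library and KO replicate 3 the highest, and the WT values lay between them.
Notch2 had 383, 532, 846 and 602 in KO and 819, 721, 814 and 693 in WT. Notch4, a receptor best known from endothelium, had 74.1, 97.3, 201 and 132 in KO and 174, 74.7, 228 and 117 in WT. Notch2 was lower in 3 KO libraries than in any WT library, but KO replicate 3 exceeded all WT libraries. The log2 fold changes (KO minus WT, with 95% intervals) were -0.27 (-1.18 to 0.65) for Notch1, -0.41 (-0.99 to 0.17) for Notch2, 0.089 (-0.82 to 0.99) for Notch3 and -0.17 (-1.22 to 0.87) for Notch4. None had an unadjusted p under 0.05 in limma (unadjusted p = 0.141 for Notch2 and between 0.512 and 0.824 for the others), and the intervals leave room for changes of 1.5-fold in either direction for all but Notch2, where a rise of that size lies outside.

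The receptors varied together across the libraries. Over the 6 pairs of receptor genes, deviations of log2(value + 1) from the group means correlated at 0.78 to 0.98 (8 libraries), as a description across libraries that share days and clones. The values themselves correlated at Pearson's r = 0.73 to 0.93 (exact permutation p up to 0.0412, adjusted over 45 pairs up to 0.143) and Spearman's rho = 0.71 to 0.95 (exact permutation p up to 0.0576, adjusted up to 0.216). Leaving out the 2 libraries farthest from the median of the first gene gave r = 0.40 (Notch2 with Notch3) to 0.96 (Notch1 with Notch4). The r of the values of Notch2 with Notch3 thus rests in part on those libraries. Values also hold differences between genotypes, and the deviations of Notch2 and Notch3 from the group means correlated at 0.94. The receptor transcripts are rich in GC (53.6% in Notch2 to 61.2% in Notch4, against a median of 50.1% over all transcripts) and long (6.59 to 10.5 kb). After a trend on GC content and length had been removed from each library, the spread between libraries of a genotype fell from 0.57 to 0.35 (SD, log2) for Notch1 and from 0.56 to 0.29 for Notch3, and the 6 correlations were 0.47 to 0.94. Without KO replicate 3, Notch2 was lower in KO (log2 fold change -0.59 ± 0.18, limma unadjusted p = 0.0151, adjusted p = 0.387) and the value for Notch3 was -0.17.
With the day as a block, over the 6 libraries of days 3, 4 and 5, Notch3 was higher in KO on all 3 days (by 0.30, 0.46 and 0.32 on the log2 scale) and passed at an unadjusted p of 0.019 in limma (log2 fold change 0.36 ± 0.097, adjusted p = 0.222). Where the trend on GC content and length was also taken out, the Notch3 value was 0.23 (limma, unadjusted p = 0.0681).

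**Figure D2:**
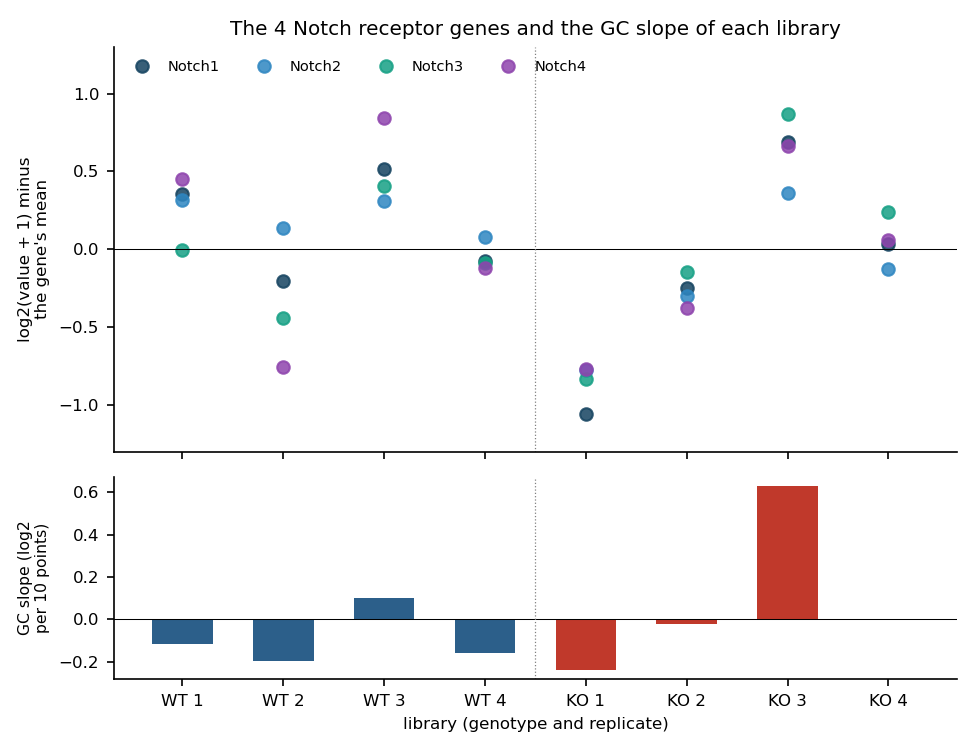
Upper panel: log2(value + 1) of Notch1, Notch2, Notch3 and Notch4 minus each gene's mean, for each library. Lower panel: the slope of each library's values on GC content (log2 per 10 percentage points), with the clone correction undone, unlike the deposited values above. KO 3 has the steepest slope at 0.63, and all 4 receptors lie above their means there and below them in KO 1.

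All 3 ligand genes had lower means in KO, and Jag1 passed the test. Jag1, a Jagged-class ligand, gave 152, 172, 172 and 158 counts in KO and 260, 200.2, 228 and 179.7 in WT. All 4 KO libraries lay below all 4 WT libraries, although KO replicates 2 and 3 and WT replicate 4 were close. Means were 163 ± 10.4 for KO (SD, n = 4) and 217 ± 34.9 for WT. The log2 fold change was -0.40 ± 0.15 (SE; limma, unadjusted p = 0.0312, adjusted p = 0.515), a fall of 24.3%. The exact two-sided permutation test, which held no term for clone or day, gave 0.0286, the smallest p that 4 against 4 libraries allow. With the GC and length trend removed the call was lost (-0.31 ± 0.15, limma unadjusted p = 0.0744), and WT replicate 4 (173.7) then lay below KO replicates 2 (175.1) and 3 (178). KO was lower on each of the 3 shared days, by 0.22, 0.41 and 0.19, but with the day as a block the unadjusted p was 0.055 (limma). The call was also lost without KO replicate 1, KO replicate 2, KO replicate 4 or WT replicate 3, with unadjusted limma p-values of 0.0642, 0.0501, 0.119 and 0.092.

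Dll1, a Delta-class ligand that activates Notch in neighbouring cells, had 91.8, 116, 59.3 and 65.1 counts in KO and 169.5, 195, 80.4 and 141 in WT. WT replicate 3 fell among the KO libraries, and the other 3 WT libraries lay above all KO libraries. The log2 fold change was -0.79 ± 0.35 (95% interval -1.61 to 0.031; limma, unadjusted p = 0.0571, adjusted p = 0.559), which did not pass. It passed with the day as a block (-0.76 ± 0.16, limma unadjusted p = 0.00853, adjusted p = 0.207), when KO was lower by 0.74, 0.43 and 1.10 on days 3, 4 and 5. It also passed without WT replicate 3 (-1.20, limma, unadjusted p = 0.0039) or without KO replicate 2 (-0.95, limma, unadjusted p = 0.033).

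Dll3, a Delta-class protein known from somite segmentation that does not activate receptors on other cells, had 31.1, 41.2, 67.5 and 40.5 counts in KO and 80.4, 64.3, 63.7 and 56.8 in WT. KO replicate 3 lay above 3 of the WT libraries and the other KO libraries below all of them. The log2 fold change was -0.60 ± 0.25 (limma, unadjusted p = 0.0512, adjusted p = 0.552). Without KO replicate 3 it was -0.78 ± 0.17 (limma, unadjusted p = 0.00319, adjusted p = 0.330). With the day as a block it was -0.34 ± 0.17 (limma, unadjusted p = 0.12), and KO was lower on days 3 and 5 (by 0.63 and 0.48) but not on day 4, where the difference was 0.081. By voom with the block it was -0.24 (limma, unadjusted p = 0.331). Dll3 is, at 61.0% GC, among the GC-richest members. With the GC and length trend removed the log2 fold change was -0.76 ± 0.17 (limma, unadjusted p = 0.00252, adjusted p = 0.317), and all 4 KO libraries (36.5 to 48.9) then lay below all 4 WT libraries (58.8 to 85.1).

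Rbpj, the factor through which all Notch receptors reach DNA, had 8909, 8914, 6717 and 9039 counts in KO and 7778, 8571, 9475 and 8979 in WT. The groups overlapped, and the log2 fold change was -0.057 (95% interval -0.40 to 0.29; limma, unadjusted p = 0.709), so a change of 1.5-fold lies outside the interval. KO replicate 3 stood below the others, and with the GC and length trend removed its value was 8812, within the range of the other KO libraries (8577 to 9121).

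Of the target genes, Hes1 was higher and Hey1 had a lower mean in KO. Hes1, a basic helix-loop-helix repressor that also represses its own gene, had 217, 217, 278 and 276 counts in KO and 142, 132, 230 and 161 in WT. All KO libraries exceeded 3 of the 4 WT libraries, and WT replicate 3 lay between KO replicates 2 and 4. Means were 247 ± 34.7 for KO (SD, n = 4) and 166 ± 43.8 for WT. The log2 fold change was 0.59 ± 0.21 (SE; 95% interval 0.084 to 1.09; limma, unadjusted p = 0.028, adjusted p = 0.496), or 1.5002-fold. The exact permutation p was 0.0857. KO was higher on each shared day, by 0.71, 0.27 and 0.77 on the log2 scale on days 3, 4 and 5, and with the day as a block the unadjusted limma p was 0.0133 (adjusted p = 0.218).
The Hes1 call was not stable when single libraries were left out, although the log2 fold change stayed above 0 each time. The call was lost without KO replicate 3, KO replicate 4, WT replicate 1, WT replicate 2 or WT replicate 4. In that order the unadjusted limma p-values were 0.0567, 0.16, 0.0588, 0.11 and 0.0518. The log2 fold changes were 0.53, 0.43, 0.53, 0.43 and 0.58. Without WT replicate 3 the log2 fold change was 0.84 (limma, unadjusted p = 0.00154). With all 8 libraries the call was also lost with the GC and length trend removed (0.52, limma unadjusted p = 0.0512), by voom on the recovered reads (0.46, limma unadjusted p = 0.0663) and in a linear model of the untransformed values (0.57, unadjusted p = 0.0518, not a limma fit).

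Hey1, a Hes-related repressor, had 41.4, 40.2, 47.3 and 42.3 counts in KO and 62.5, 51.8, 55.2 and 45.6 in WT. Only KO replicate 3 reached above the lowest WT library in these deposited values, where the log2 fold change was -0.32 ± 0.14 (limma, unadjusted p = 0.0522, adjusted p = 0.555). KO was lower on all 3 shared days. With the clone correction undone, KO had 47.7, 46.5, 53.6 and 36.0 and WT 56.2, 58.1, 61.5 and 39.3, so KO replicates 1 and 2 also exceeded the lowest WT library. The undone values gave -0.31 with a clone term (limma, unadjusted p = 0.0653) and -0.22 without (limma, unadjusted p = 0.269). With the day as a block Hey1 did not pass (-0.23 ± 0.10, limma unadjusted p = 0.0901, and by voom unadjusted p = 0.309). It passed with the GC and length trend removed (-0.38 ± 0.13, limma unadjusted p = 0.0223, adjusted p = 0.436), without KO replicate 3 (limma, unadjusted p = 0.037) and without WT replicate 4 (limma, unadjusted p = 0.0292). Thus the 2 target genes had differences of opposite sign. In bulk RNA fewer cells of a type and less RNA per cell cannot be told apart, here and for every gene above.

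**Figure D3:**
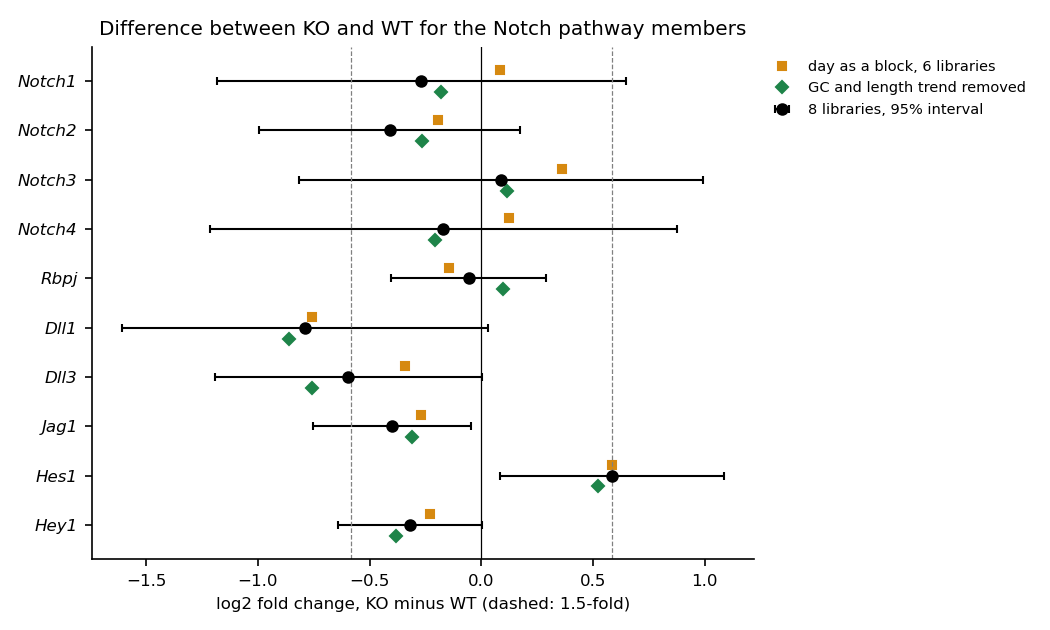
Log2 fold change (x axis, KO minus WT) of the 10 members with its 95% interval over 8 libraries (black circles), with the day as a block over 6 libraries (orange squares) and with the GC and length trend removed (green diamonds); dashed lines mark 1.5-fold. Hes1 at 0.59 and Jag1 at -0.40 have intervals that leave out 0, while the signs of Notch1, Notch4 and Rbpj differ between the fits.

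Of the 10 members, 1 (Hes1) was higher and 1 (Jag1) lower in KO at an unadjusted p under 0.05, beside 4.62% and 4.46% of all 13558 transcripts, or 9.09% in either direction. In limma, Hes1 met the fold change criterion of the study (unadjusted p under 0.05 and at least 1.5-fold) among the higher transcripts, beside 1.76% of all. No member met it among the lower, beside 2.49% of all. Hes1, at 1.5002-fold, lay just past that limit. In a linear model of the untransformed values, the form closest to the study's own model, no member met the criterion, beside 2.82% of all transcripts in either direction. Groups did not overlap for 1 member below (Jag1), beside 4.62% of all transcripts, and for no member above, beside 5.48%. With the day as a block 3 members passed (Notch3, Dll1 and Hes1), beside 19.2% of all transcripts, so that fit called more transcripts in general. With the GC and length trend removed 2 members passed, Dll3 and Hey1 in place of Hes1 and Jag1, beside 9.63% of 13472 transcripts. No member, and 0% of all transcripts, passed at an adjusted p under 0.05 in limma. The members' median log2 fold change was -0.29, with 8 of 10 below 0. Over all transcripts the median was -0.00036, with 6784 of 13558 below 0. The receptors varied together, so the members' signs are not independent. With the day as a block Notch1 and Notch4 stood above 0 (0.082 and 0.12).

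Hes1 and Dll1 ran opposite to each other from library to library. Over the 8 libraries their log2(value + 1) correlated at Pearson's r = -0.98 (exact permutation p = 4.96e-05, adjusted over 45 pairs of members p = 0.00223) and Spearman's rho = -0.98 (exact permutation p = 0.000397, adjusted p = 0.0128). Leaving out the 2 libraries farthest from the median of Dll1 gave r = -0.96. Deviations from the group means, which hold no difference between genotypes, correlated at -0.97, at -0.89 with the authors' clone correction undone and at -0.95 with the GC and length trend removed. WT replicate 3, the library with the highest Hes1 and lowest Dll1 value in WT, lay among the KO libraries for both genes. The pair was picked from the 45 after the values were seen, and libraries that share a day are not independent.

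**Figure D4:**
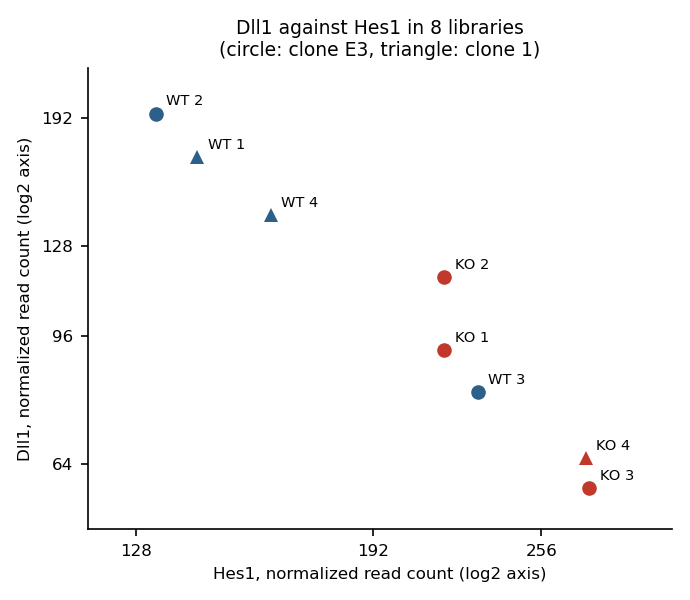
Dll1 (y axis) against Hes1 (x axis), normalized read counts on log2 axes, 1 point per library; red is KO, blue WT, circles clone E3 and triangles clone 1. WT 2 has the lowest Hes1 (132) with the highest Dll1 (195) and KO 3 the highest Hes1 (278) with the lowest Dll1 (59.3).

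The remaining machinery of the pathway was read from a list of 67 other genes, of which 60 were in the table; the ligand gene Dll4, Rbpjl and the target genes Hes2, Hes3, Hes5, Hes7 and Heyl had no row. Of the 60, 1 was higher and none lower in KO at an unadjusted p under 0.05, and none met the fold change criterion, beside the 9.09% of all transcripts that passed in either direction. Their median log2 fold change was -0.083, with 22 above and 38 below 0, beside 6774 above and 6784 below 0 of all transcripts. By role, 1 of 10 cleavage genes passed, and none did among 4 other ligand genes, 5 glycosylation genes, 6 genes of ligand endocytosis, 8 other genes of the nuclear complex, 14 co-repressor genes, 3 other targets and 10 genes of receptor turnover.

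The gene that passed was Aph1a, a subunit of gamma-secretase, the protease that frees the intracellular domain of Notch. Its mean was 693 ± 68.0 (SD, n = 4) in KO and 535 ± 24.7 in WT, with all KO libraries above all WT libraries, and its log2 fold change was 0.37 ± 0.12 (limma, unadjusted p = 0.0174, adjusted p = 0.469). It passed with the day as a block too (limma, unadjusted p = 0.0117), and did not pass without KO replicate 4 (unadjusted p = 0.0989) or WT replicate 2 (unadjusted p = 0.0515). The other gamma-secretase genes in the list had log2 fold changes of -0.14 to 0.074 and unadjusted limma p-values of 0.541 to 0.997. The groups also failed to overlap for Epn2, an epsin of ligand endocytosis (1869 ± 67.0 in KO and 2071 ± 91.0 in WT, limma, unadjusted p = 0.187), and for Kdm5a, a histone demethylase that can act with Rbpj in repression (1343 ± 363 in KO and 1810 ± 101 in WT, limma, unadjusted p = 0.0905). Both lay below WT without passing the test. Thus 1 of the 60 genes lay above and 2 lay below without overlap, beside 5.48% and 4.62% of all transcripts. Kdm5a passed without KO replicate 3 (log2 fold change -0.27, limma, unadjusted p = 0.0382). Exons of Aph1a, Kdm5a, Dll1, Notch1 and Notch3 overlap a gene on the other strand, and the library kit does not keep the strand, so reads of such partners cannot be told apart. Exons of Notch2 overlap Gm42820 on the same strand, and reads of these cannot be told apart either.

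**Figure D5:**
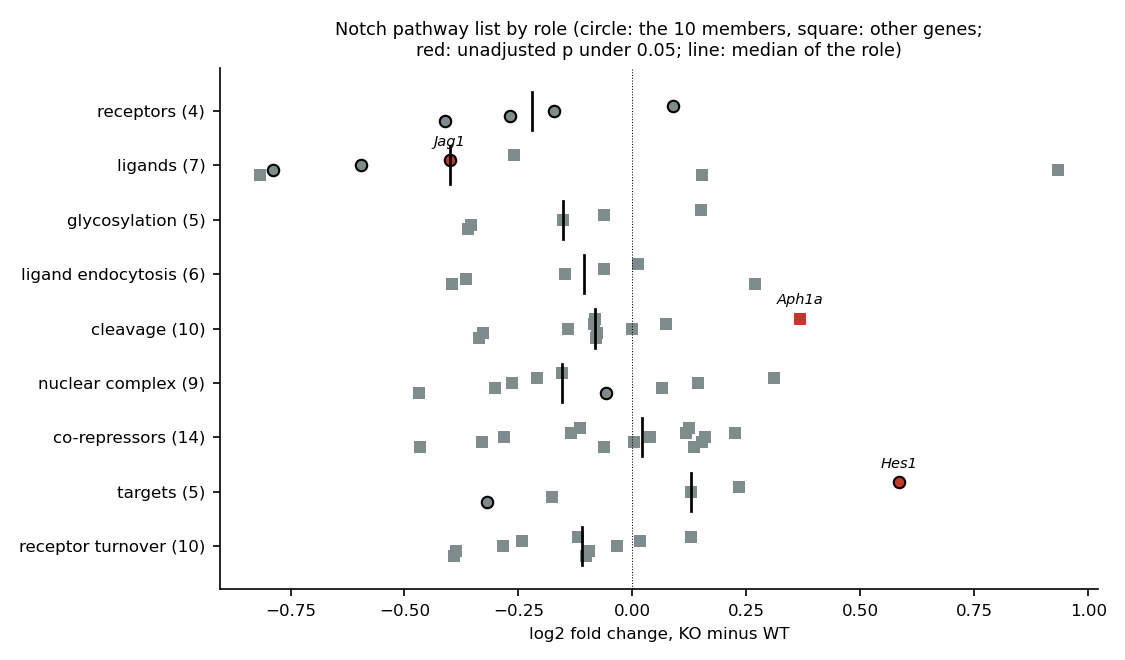
Log2 fold change (x axis, KO minus WT) of the 70 genes of the pathway list in the table, by role with the number of genes in brackets; circles are the 10 members, squares the other genes, red marks an unadjusted p under 0.05 and lines the median of a role. Jag1, Hes1 and Aph1a are the red points, and the medians of the roles lie between -0.40 (ligands) and 0.13 (targets).

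The clones gave the same signs for Hes1 and Jag1, which passed the test, and for Dll1, Dll3 and Hey1, which did not. Within clone E3 (3 KO, 2 WT) the log2 fold change was 0.43 for Hes1 (limma, unadjusted p = 0.199), -0.37 for Jag1 (unadjusted p = 0.087), -0.54 for Dll1 (unadjusted p = 0.301), -0.52 for Dll3 (unadjusted p = 0.189) and -0.31 for Hey1 (unadjusted p = 0.131). Within clone 1, which has a single KO library and so allows no test here, it was 0.86 for Hes1, -0.45 for Jag1, -1.23 for Dll1, -0.73 for Dll3 and -0.33 for Hey1. Clone E3 alone gave no member a call. An interaction of genotype and clone rests on the single clone 1 KO library, so only its size is given. On the log2 scale it was 0.43 for Hes1 and -0.70 for Dll1, and 0.44 and -0.45 with the clone correction undone. For Trim71 it was -1.62 in the deposited values and -0.044 with the correction undone. Differences between clones in the deposited values thus depend in part on that correction.

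Markers of other cell types were read beside these results. Neural markers were in the table for 5 of 8 genes (Neurog2, Fabp7 and Hes5 had no row), with summed values of 719 to 993 in KO and 854 to 1515 in WT and 1 of them, Nes, passing (limma, unadjusted p under 0.05). Endothelial markers were present for 3 of 4 (Cdh5 had no row), with sums of 1769 to 2406 in KO and 2814 to 3636 in WT, which did not overlap, and Pecam1, a gene that mES cells also express, and Tek passed. Endoderm markers were present for 5 of 5, with sums of 226 to 510 in KO and 56.7 to 387 in WT and none passing. Their median log2 fold change was nevertheless 1.34, the largest shift among the lists, at marker means of 9.40 to 126. The medians were -0.50 for neural, -0.55 for endothelial, 0.19 for mesoderm, 0.099 for fibroblast and 0.012 for ES cell markers. Mesoderm markers were present for 4 of 6 (Mixl1 and Msgn1 had no row; 137 to 168 in KO and 103 to 173 in WT; Eomes passed) and fibroblast markers for 4 of 5 (Col3a1 had no row; 96.6 to 178 in KO and 74.6 to 155 in WT; none passed). The part of such cells in the differences of Jag1, Dll1, Dll3, Hey1 and Hes1 was not tested.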

How the data were processed

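mRNA of 8 libraries (4 KO, 4 WT) was sequenced with a TruSeq kit from total RNA of sorted mES cells. The authors aligned paired-end reads to mm10 with Bowtie2 2.2.1 after base calling with CASAVA 1.8, counted reads per RefSeq transcript in Partek 6.6, normalized them with DESeq2, corrected for batch, set values under 1 to 1 and kept transcripts with a group mean of at least 10. The deposited values are thus a normalized signal. No per-sample column was left unused, and no pair of libraries held identical values.

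In a linear model of the values on genotype and clone, the term for clone came to 0, within the 6 digits printed, in each of the 13350 transcripts that never touched the floor of 1. Undoing this shift gave unique whole reads for 13489 of 13558 transcripts (99.5%). The test was limma (version 3.58.1, R 4.3.3), applied to log2(value + 1), which understates changes of low genes, with terms for genotype and clone and Benjamini-Hochberg adjustment over all transcripts. Single values were compared by exact two-sided permutation tests over 70 assignments. These tests held no term for clone or day and used values already corrected for clone, so their p-values are approximate. Read recovery and the fit were tested on simulated data. Alternatives were a pseudocount of 10, a mean of at least 50, no clone term, untransformed values, a replicate block by day, recovered reads (voom), the correction undone, removal of a spline trend on GC content and length (GENCODE vM21, 13472 transcripts), each clone alone and each library left out. Other steps used scipy 1.17.1, pandas 2.3.3, numpy 2.4.6 and, for plots, matplotlib 3.10.9 under Python 3.11.15.

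Days 3, 4 and 5 had 1 KO and 1 WT library each. Same-day deviations from the group means correlated at 0.42, 0.54 and -0.23 in the deposited values and at 0.54, 0.63 and 0.52 with the correction undone. The pairing comes from the day label, and same-day libraries also share a clone.

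The members and lists were chosen with earlier results of these data known. Genes named are the 10 members, Trim71, genes of the pathway list that met the criterion, had an unadjusted p under 0.05 or showed no overlap, and the 3 transcripts most correlated with Hes1 and with Notch1 at a mean of at least 100. Others named were chosen after their values were seen.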

Additional observations from a re-analysis of the deposited data

Results flagged for a closer look

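The value of Rbpj in KO replicate 3, 6717 normalized counts, stood far from the 3 other KO libraries (8909 to 9039). Its gap to the nearest library took 0.944 of the range of the group, above Dixon's critical value for 4 samples. It was the only such case among 28 groups checked (the 10 members, Trim71, Aph1a, Epn2 and Kdm5a in both genotypes), and chance gives about 5% of groups. Rbpj has a GC content of 43.7%, and KO replicate 3 had the steepest rise of values with GC content. With the GC and length trend removed the value was 8812.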

How the results depend on the processing

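Over 24 alternatives, Hes1, Jag1, Dll1, Dll3 and Notch2 kept their signs, as did Hey1 over the 23 that could be run and Aph1a, Epn2 and Kdm5a over 24. Hes1 passed at an unadjusted p under 0.05 in 14, Jag1 and Dll1 in 11 each, Dll3 in 8 and Aph1a in 20. Trim71 passed in all. These counts include the fit within clone 1, where 1 KO library is taken to vary like the WT libraries. Alternatives with the 6 libraries unblocked, with undone values and either a block or a fit that lacks the clone term, or with the trend removed from undone values were chosen after seeing the data. Depth limits the low genes (Hey1, Dll3, Dll1 and Notch4). Unless stated, the cause of a change was not tested.

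Against 2 members with an unadjusted p under 0.05, there were 4 with a pseudocount of 10, a mean of at least 50, the correction undone without clone term, or the trend removed with the replicate block. There were 5 without a clone term, 1 on untransformed values or by voom, and 0 in the 6 libraries unblocked or within clone E3. The replicate block by day gave 3. Leaving out single libraries gave 0 (without KO replicate 4) to 4 (without KO replicate 3). The count over all 13558 transcripts moved as well, from 1232 in the main fit to 1898 without a clone term. It was 907 in the 6 libraries unblocked, 376 within clone E3, 442 without KO replicate 4 and 1444 without KO replicate 3. Against 1 member past the fold change criterion there were 3 with a mean of at least 50 or without a clone term (correction kept or undone). There were 2 with the trend removed and the replicate block. On untransformed values, by voom, in the 6 libraries unblocked or within clone E3 there were 0, and leaving out single libraries gave 0 to 2. Over all transcripts the criterion called 238 higher and 338 lower in the main fit, and 308 and 403 without a clone term. It called 139 and 176 of 11089 at a mean of at least 50, and 313 and 389 of 13472 with the trend removed and the block.

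Against 1 other pathway gene with an unadjusted p under 0.05 there were 2 without a clone term (correction kept or undone), on untransformed values, in the 6 libraries unblocked, by voom or with the trend removed (correction kept or undone). Within clone E3 there were 0. The replicate block gave 6, 7 with the correction undone, 11 by voom and 6 with the trend removed. These 4 fits also called more of all transcripts than the main fit. They called 2601 of 13558, 2518 of 13489, 3199 of 13489 and 2222 of 13472, against 1232 of 13558. Leaving out single libraries gave 0 to 4 other pathway genes. Against 0 past the criterion there were 1 (correction undone, replicate block) and 2 (voom, replicate block), and 0 to 1 when single libraries were left out. Over all 13489 transcripts the first of these fits called 430 higher and 595 lower, and the second 390 and 688. Members whose groups do not overlap numbered 2 with the trend removed and 1 to 4 when single libraries were left out. The same count over all transcripts was not made for these settings, so these numbers are not read as a result about the members.

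The sign turned for Notch1 with the replicate block or the same 6 libraries unblocked (0.082 each), the block with the correction undone (0.084), by voom (0.090) or with the trend removed (0.044). For Notch4 these gave 0.12, 0.12, 0.13 and 0.0042 (voom), and leaving out single libraries gave -0.58 to 0.26. Notch3 turned within clone E3 (-0.019), and leaving out single libraries gave -0.17 to 0.35. Rbpj turned with the trend removed (0.097), that and the block (0.076), that and the correction undone (0.11) and within clone 1 (0.11), and leaving out single libraries gave -0.15 to 0.036. All are log2 fold changes.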

Other observations

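Over the 8 libraries log2(value + 1) of Dll3 correlated with that of Notch2 at Pearson's r = 0.95 (exact permutation p = 0.00067, adjusted over 45 pairs p = 0.0100) and Spearman's rho = 0.93 (exact permutation p = 0.00223, adjusted p = 0.0201), and at 0.89 without the 2 libraries farthest from the median of Notch2. Deviations from the group means correlated at 0.93, and at 0.60 with the GC and length trend removed. With Notch1 r was 0.79 (exact permutation p = 0.0169, adjusted p = 0.0762), with Notch4 0.60 (adjusted p = 0.349) and with Notch3 0.52 (adjusted p = 0.374), by the same exact permutation test. The part of the library GC slopes in this was not tested beyond that value.

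Among 9938 transcripts with a mean of at least 100, those most like Hes1 over the 8 libraries were Ckmt1 (r = 0.985), Wdfy1 (r = 0.984) and Atp6v0b (r = 0.983). Those most like Notch1 were Rere (r = 0.993), Dot1l (r = 0.989) and Pom121 (r = 0.989). With 8 libraries and this many transcripts, high values are a description of these libraries only. Ckmt1 ranged from 335 to 518 in KO and from 184 to 350.5 in WT, so that its groups overlap as those of Hes1 do. Rere ranged from 1072 to 1658 in KO and from 1343 to 1560 in WT. Notch2, Notch3 and Notch4 had r = 0.93, 0.92 and 0.90 with Notch1.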
